A study of Saccharomyces cerevisiae with 8 samples.

Results

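Regular nucleosome arrays of budding yeast were followed through the depletion of histone H3. They were chosen by measured values of a single library, wildtype replicate C at 0 hours: among the nucleosomes that the authors called there with at least 30 read centers, every maximal run of at least 6 consecutive nucleosomes whose neighbouring centers (dyads) all lay 155 to 175 bp apart was taken as an array. This rule gave 451 arrays with 2978 nucleosomes, which is 5.22% of the 57091 nucleosomes with enough read centers and a part of the 66048 called in that library. The arrays held 2527 of the 57075 spacings between neighbours, or 4.43%. Read centers, called midpoints from here on, are the middles of the sequenced fragments that micrococcal nuclease (MNase) left undigested. The spread and spacing of the arrays in the choosing library follow from the rule, so its values are given as a description and support nothing.

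The wildtype strain (YEF473A) carries both genes for histone H3. The H3 shutoff strain (DCB200.1) has HHT1 deleted and its only other H3 gene, HHT2, behind the GAL1 promoter, which galactose turns on and dextrose turns off. Cells of both strains were grown in galactose and moved to dextrose. They were taken immediately after this shift (0 hours) and 3 hours later, fixed with formaldehyde and digested with MNase. Both ends of fragments of mononucleosome size were sequenced. The 8 libraries came from the cultures named wildtype replicates B and C and, in the other strain, replicates 3 and 4, with 2 libraries in each group of strain and time. The promoter removes the supply of new H3 and not the H3 already made, the H3 shutoff cells arrest with large buds after a round of DNA synthesis, and both strains change their carbon source, so depletion, arrest and sugar cannot be told apart within that strain. Each library was reduced by the authors to 5000001 fragments, so all values are shares of a library, and a loss of nucleosomes that is uniform along the genome would not show.

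A nucleosome is a stretch of DNA wrapped around a core of histone proteins, and H3 with H4 forms the center of that core. In yeast genes the nucleosomes downstream of the transcription start follow each other at near-constant distances, a pattern that chromatin remodelers such as ISW1 and CHD1 are known to set from a barrier near the start. In a population of cells, such an array shows as sharp peaks of midpoints at the dyads and almost none in the linkers between them. An array is therefore described by the distance between its peaks and by how far the peaks stand above the linkers.

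Of the 451 arrays, 274 had 6 nucleosomes, 115 had 7, 37 had 8, 19 had 9, 5 had 10 and 1 had 12. From first to last dyad they measured 791 to 1804 bp, with a median of 836 bp. Each of the 16 chromosomes had arrays, from 7 on chromosome 1 to 63 on chromosome 4. In the choosing library the median count of an array nucleosome was 81, against 71 for the 54113 other nucleosomes with enough midpoints. Just outside the rule stood 659 runs of 5 nucleosomes, and 80 array nucleosomes were within 5 of the count minimum. Beyond the 902 array ends the next spacing was longer than the range at 698 ends and shorter at 204, with a median of 224.5 bp, and at 191 ends (21.2%) it missed the range by at most 5 bp. Arrays thus ended mostly at a longer spacing to the next nucleosome with at least 30 midpoints. Calls with fewer midpoints were passed over, so such a spacing need not be free of nucleosomes.

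Chromosomes 1, 11, 12 and 13, for which the transcript list used here is whole, held 105 arrays. Of these, 86 (81.9%) lay entirely inside 1 of the 1491 listed transcripts, 3 touched none, and listed transcripts covered 77.7% of those chromosomes. In the 101 arrays with at least 50% of their length in a transcript, the first dyad on the side of the gene start lay at a median of 169 bp from that start. The transcripts of these arrays measured 474 to 6496 bp, with a median of 2068 bp. In 45 arrays the first dyad lay between -100 and 150 bp from the start (median 40 bp), which is where the +1 nucleosome of a gene is found. In 52 others it lay farther inside (median 520.5 bp).

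Whole-library values bear on these results in several places. The mean fragment length rose from 0 to 3 hours in all 4 cultures, from 150.6 to 154.6 bp in wildtype B, from 146.0 to 156.0 bp in wildtype C, from 157.2 to 158.0 bp in H3 shutoff 3 and from 152.9 to 162.9 bp in H3 shutoff 4. The part of fragment length in the results below was not tested, beyond the repeats given for fragments of 140 to 160 bp. Midpoints were confined to 4 of the libraries in 149 tiles of 200 bp, namely the first time point of wildtype B, the second of wildtype C, and both of H3 shutoff 4. None of these tiles lay in 1 of the 451 arrays. In the 277 arrays that the rule finds in wildtype B at 0 hours, used below as an alternative, lay 9 of them. Their part in the results of that alternative was not tested. The tiles go across the letters of the wildtype cultures, so wildtype changes are given below for the labelled pairs. Where this matters, they are also given with the 3-hour libraries exchanged. With 2 cultures in each strain, permuting the strain labels in an exact two-sided test gives a p of 0.333 at best, and changes between cultures are therefore given by their size and spread.

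The periodic pattern of the arrays was nearly lost on H3 depletion. Midpoints were aligned on the 902 end dyads and expressed relative to the genome mean of each library. In H3 shutoff replicates 3 and 4 the peak on the end dyad fell from 3.33 and 3.29 times the genome mean at 0 hours to 1.69 and 1.80 at 3 hours. The second peak fell from 2.89 and 3.07 to 1.40 and 1.47. The trough between them rose at the same time from 0.543 and 0.508 to 0.983 and 0.991, so that the linker of a depleted cell population held as many midpoints as an average base of the genome. The end peak of the wildtype was 3.93 and then 3.85 in replicate B, 3.95 and then 3.78 in replicate C, and the trough lay between 0.263 and 0.289 in all 4 libraries. The strains already differed before depletion, with higher troughs and lower peaks in both H3 shutoff libraries at 0 hours than in any wildtype library.

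**Figure D1:**
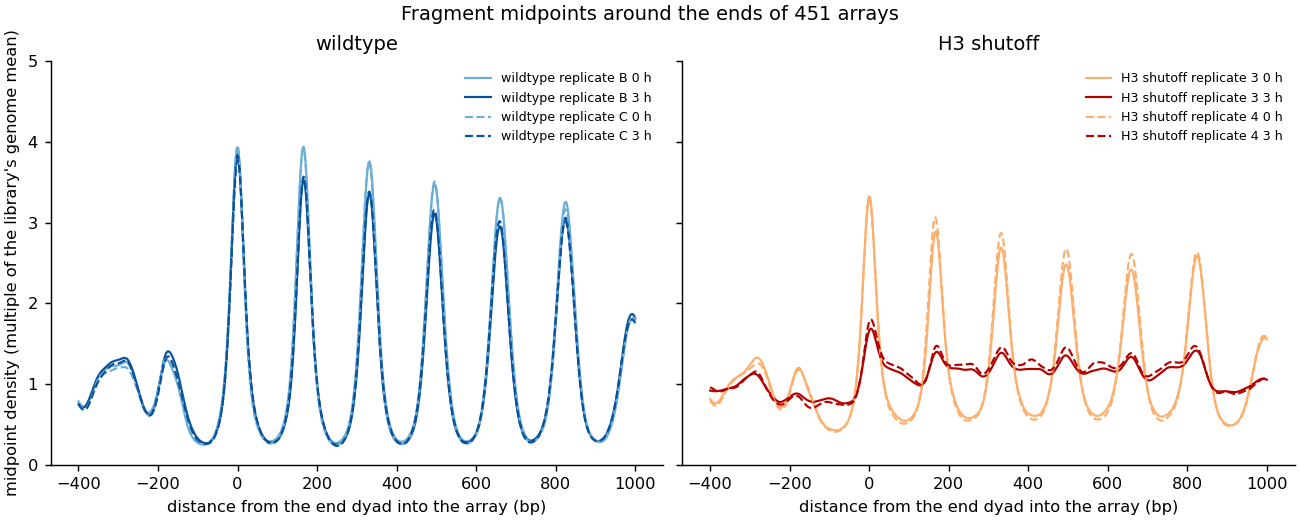
Midpoint density, as a multiple of each library's genome mean, against the distance in bp from the end dyad of an array (0) into the array (positive), averaged over the 902 ends of the 451 arrays. Lines are single libraries. The troughs of the wildtype lie at 0.263 to 0.289, those of H3 shutoff at 0 hours at 0.508 and 0.543, and at 3 hours at 0.983 and 0.991.

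The outer edge of the arrays also flattened but could still be seen at 3 hours. The lowest density within 130 bp outside the end dyad was 0.760 and 0.731 in H3 shutoff replicates 3 and 4 at 3 hours, against 0.425 and 0.408 at 0 hours and 0.249 to 0.267 in the 4 wildtype libraries. Between the end dyad and 600 bp inside, the mean density was 1.27 and 1.29 at 0 hours and 1.21 and 1.27 at 3 hours in the H3 shutoff strain. Array DNA thus remained richer in midpoints than its flanks while the peaks within it flattened.

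Autocorrelation does not depend on where the peaks lie, only on whether they repeat. It was computed on midpoints smoothed with a Gaussian of SD 10 bp, and its height is the value at the first peak (lag 130 to 220 bp) minus the lowest value before it. In the arrays the height was 0.884 and 1.11 in wildtype replicate B at 0 and 3 hours, and 1.16 and 1.21 in replicate C. H3 shutoff replicate 3 had 0.970 at 0 hours and 0.346 at 3 hours, and replicate 4 had 1.02 and 0.200. The mean change of the height was thus -0.72 ± 0.14 in H3 shutoff (SD, n = 2 cultures), against 0.227 in wildtype B, while the change of 0.0444 in wildtype C starts from the choosing library. The 2 H3 shutoff libraries at 3 hours were the lowest of the 8. With the wildtype 3-hour libraries exchanged, the wildtype changes were 0.323 and, from the choosing library, -0.0519, so a rise in both wildtype cultures depends on their pairing.

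In the rest of the genome, taken in 1000-bp pieces, the same height was 0.514 to 0.724 in the wildtype libraries. H3 shutoff replicate 3 fell there from 0.480 to 0.168, and replicate 4 from 0.518 to 0.113. The arrays, chosen for regular spacing in another strain, were above the rest in every library, the H3 shutoff libraries at 3 hours included. Their second peak, a repeat of 2 nucleosomes, was 0.503 and 0.551 at 0 hours and 0.00824 and -0.0362 at 3 hours in H3 shutoff replicates 3 and 4. The first peak, between direct neighbours, was still 0.183 and 0.0889. The second peak was thus at about 0 after depletion, against 0.487 to 0.665 in the wildtype. In the rest of the genome the second peak was -0.0648 and -0.0850 in the same 3-hour libraries, below that of the arrays. A value near 0 is therefore not the lowest level seen, and whether order over 2 nucleosomes remained was not tested.

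**Figure D2:**
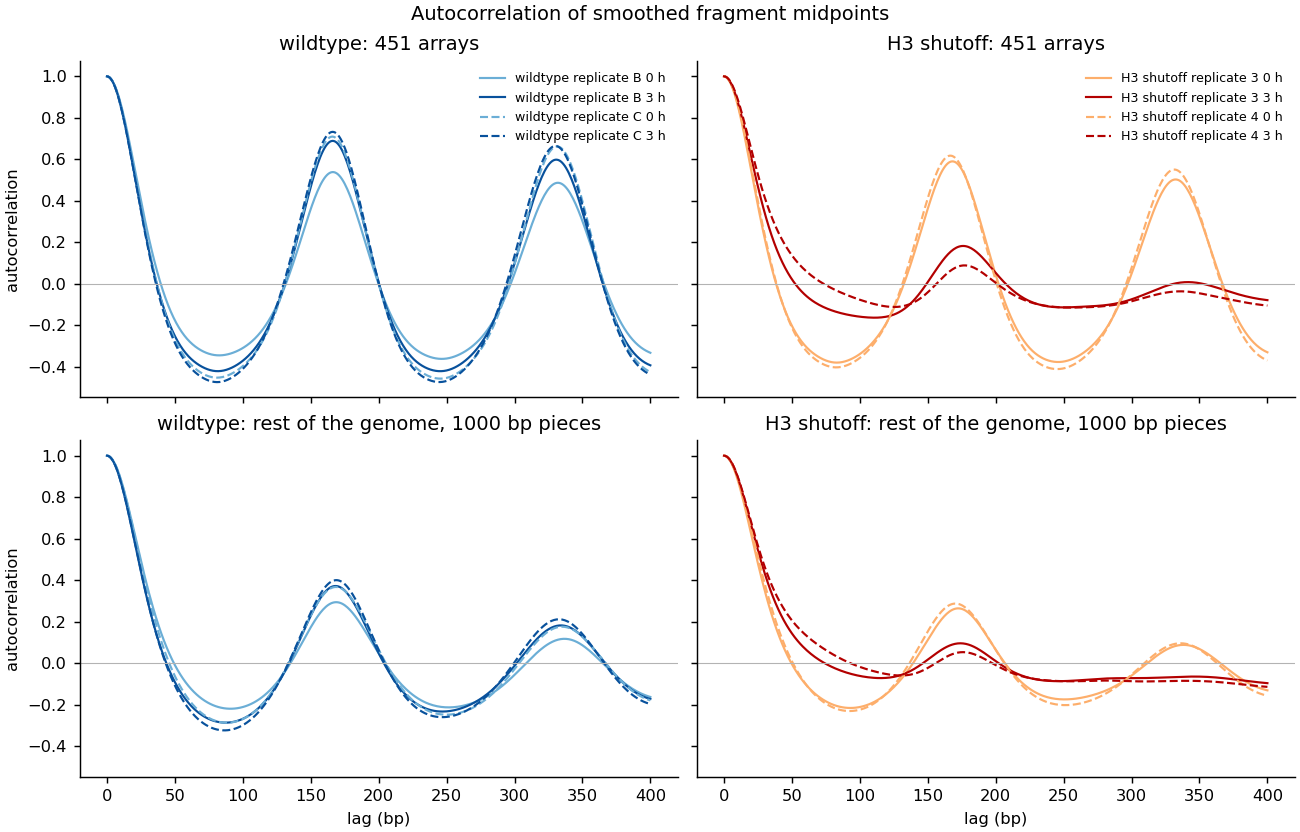
Autocorrelation of smoothed midpoints (vertical axis) against lag in bp, in the 451 arrays (top) and in the rest of the genome (bottom), with a line for each library. In the H3 shutoff strain at 3 hours the first peak in the arrays is 0.183 and 0.0889, against 0.590 and 0.618 at 0 hours, and the second lies at about 0.

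The distance between the peaks, the repeat length, was the lag of the first peak. It was 166 bp in all 4 wildtype libraries, 168 and 167 bp in H3 shutoff replicates 3 and 4 at 0 hours, and 176 and 177 bp at 3 hours, a rise of 8 and 10 bp. With fragments of 140 to 160 bp the lag at 3 hours was 167 and 165 bp, against 166 bp in both cultures at 0 hours, and the rise was absent (mean change 0 bp). The rise in repeat length was thus not seen in fragments of 140 to 160 bp, and its cause was not tested. With all fragments, the lag at 3 hours was read from low first peaks of 0.183 and 0.0889. The mean fragment length rose by 0.810 and 10.0 bp in H3 shutoff replicates 3 and 4. It rose by 4.03 and 10.0 bp in wildtype B and C, where the lag stayed at 166 bp. In the rest of the genome the lag went from 172 to 174 bp and from 170 to 176 bp.

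The called nucleosomes moved off their wildtype positions. A nucleosome of a library was matched to an array dyad when its center lay within 73 bp. H3 shutoff replicate 3 matched 90.0% of the array dyads at 0 hours and 71.4% at 3 hours, and replicate 4 matched 94.6% and 69.9%. The wildtype libraries other than the choosing one matched 94.5% to 97.9%. The median distance between a matched center and the array dyad was 3 or 4 bp in these 3 wildtype libraries and in H3 shutoff at 0 hours, and 25 and 26 bp in H3 shutoff at 3 hours. A match within 10 bp was found for 69.4% and 79.9% of the dyads at 0 hours and for 21.2% and 20.9% at 3 hours.

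Nucleosomes outside the arrays lay farther from the wildtype positions than array nucleosomes at 0 hours and slightly closer to them at 3 hours. Of the 54113 others, 56.4% and 65.0% were matched within 10 bp in H3 shutoff replicates 3 and 4 at 0 hours and 24.6% and 23.9% at 3 hours. Their median distance went from 7 and 5 bp to 22 and 23 bp. In percentage points the share within 10 bp fell by 48.2 in replicate 3 and fell by 59.0 in replicate 4 in the arrays, while outside them it fell by 31.8 and fell by 41.2. The order of array and other nucleosomes was thereby turned round at 3 hours in both cultures.

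Fewer nucleosomes were called in the arrays after depletion. Within the arrays, out to 82 bp beyond their end dyads, the authors' calls numbered 2708 and 2832 in H3 shutoff replicates 3 and 4 at 0 hours and 2344 and 2301 at 3 hours. Wildtype replicate B had 2918 and 2835, and wildtype replicate C had 2816 at 3 hours. All calls of a library also became fewer, from 60253 to 57450 in H3 shutoff replicate 3 and from 62470 to 55959 in replicate 4. In wildtype replicate B they went from 64594 to 62848, and wildtype replicate C had 62228 at 3 hours. Over the whole genome, the median spacing between neighbouring calls of at least 30 midpoints rose from 182 to 202 bp and from 177 to 219 bp in the H3 shutoff cultures, and was 172 to 177 bp in the wildtype.

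Spacings were counted as kept when both dyads of an array pair were matched by different calls 155 to 175 bp apart. Wildtype replicate B kept 72.3% of the 2527 array spacings at 0 hours and 75.7% at 3 hours, and wildtype replicate C kept 77.6% at 3 hours. H3 shutoff replicate 3 kept 65.6% at 0 hours and 22.9% at 3 hours. Replicate 4 kept 71.2% and 20.3%. The mean change in the H3 shutoff strain was -46.8 ± 5.71 percentage points (SD, n = 2 cultures). There was no overlap between the H3 shutoff 3-hour libraries and any other library. With the range widened by 10 bp, H3 shutoff replicates 3 and 4 kept 74.9% and 85.2% at 0 hours and 31.3% and 27.1% at 3 hours.

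The same spacing outside arrays was lost to a smaller extent. Of 19999 neighbouring pairs 155 to 175 bp apart that belonged to no array, H3 shutoff replicates 3 and 4 kept 58.5% and 62.8% at 0 hours and 26.7% and 23.5% at 3 hours. At 3 hours, 27.7% and 22.5% of all neighbouring spacings in those libraries were in the range, whichever nucleosomes they joined. A former array spacing, with unmatched pairs counted as lost, was therefore in the range no more often than any neighbouring spacing of the same library. At 0 hours those general shares were 41.4% and 41.7%, well below the 65.6% and 71.2% of the arrays.

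Counted by array, 101 and 108 arrays kept every spacing in H3 shutoff replicates 3 and 4 at 0 hours, and 3 in each at 3 hours. No spacing was kept in 15 and 7 arrays at 0 hours, and in 129 and 145 at 3 hours, of which 68 arrays were common to both cultures. Wildtype replicate B kept all spacings in 99 arrays at 0 hours and 139 at 3 hours, and none in 2 arrays at either time. Most arrays of another wildtype library thus lost a spacing by this count, while nearly all kept some.

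The rule was also applied to each library by itself. Wildtype replicate B held 277 arrays at 0 hours and 832 at 3 hours, and wildtype replicate C held the 451 at 0 hours and 978 at 3 hours. H3 shutoff replicate 3 went from 499 to 67 and replicate 4 from 528 to 17. The range of the rule is fixed, and its upper bound of 175 bp lies below the lag of 176 and 177 bp in these 3-hour libraries. The part of a longer repeat in these falls was not tested. More arrays were found at 3 hours in both wildtype cultures, also with the 3-hour libraries exchanged (a rise of 701 and 381), and fewer in both H3 shutoff cultures. The 67 and 17 arrays of the depleted libraries had 11.4% and 12.7% of their bases in the 451 arrays. That share was 24.2% and 27.4% in H3 shutoff at 0 hours, 35.2% and 19.7% in wildtype B at 0 and 3 hours and 19.0% in wildtype C at 3 hours, so the arrays of every library other than the choosing one lay mostly elsewhere.

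The spread of a nucleosome is the SD of its midpoints around its center, as the authors deposited it for each call. The median spread of matched array nucleosomes was 22.8 and 23.6 bp in wildtype replicate B at 0 and 3 hours and 22.7 and 22.8 bp in wildtype replicate C. H3 shutoff replicate 3 rose from 31.0 to 38.5 bp and replicate 4 from 30.0 to 38.1 bp, a mean rise of 7.75 ± 0.37 bp (SD, n = 2 cultures). The 2 libraries of each H3 shutoff group lay within 1 bp of each other. Other nucleosomes rose from 33.0 to 37.5 bp and from 32.4 to 37.1 bp. Array nucleosomes were narrower than the others by 4.07 to 4.89 bp in the wildtype, by 1.98 and 2.35 bp in H3 shutoff at 0 hours, and wider than the others by 0.994 and 0.966 bp at 3 hours.

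How the midpoints were divided between dyads and linkers was measured within 20 bp of each dyad and of each linker middle. In H3 shutoff replicate 3 the mean count at a dyad fell from 45.9 to 24.5, and the mean count in a linker rose from 9.83 to 19.7. In replicate 4 the dyad count fell from 47.9 to 25.8 and the linker count rose from 9.13 to 20.9. At 0 and 3 hours wildtype dyads had 60.1 and 55.0 midpoints (replicate B) and 59.4 and 55.1 (replicate C), and wildtype linkers had 4.36 to 4.78. Dyads thus lost and linkers gained midpoints in both depleted cultures, with no overlap between the 3-hour libraries and any other.

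The ratio of both means, the dyad to linker ratio, was 12.6 and 12.2 in wildtype B and 13.5 and 12.6 in wildtype C. H3 shutoff replicate 3 fell from 4.67 to 1.24 and replicate 4 from 5.25 to 1.23. On the log2 scale the change was -2.00 ± 0.13 in H3 shutoff (SD, n = 2 cultures) and -0.05 in wildtype B, the wildtype culture whose calls did not set the dyads and linkers. The ratio of the 2 H3 shutoff libraries at 0 hours was below that of every wildtype library, at dyads and linkers set in the wildtype. The autocorrelation height, which does not use these positions, was 0.970 and 1.02 in the same 2 libraries. That is above the 0.884 of wildtype B at 0 hours and below the 1.11 to 1.21 of the other wildtype libraries. Pairs of the same spacing in no array fell from 4.23 to 1.31 and from 4.50 to 1.31, which left them slightly above the arrays at 3 hours. Such pairs had 8.37 in wildtype B at 0 hours, so the lower ratio of H3 shutoff at 0 hours was not particular to the arrays.

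Single arrays differed widely. In H3 shutoff replicate 3 at 3 hours the ratio of an array ran from 0.305 to 11.5, with a median of 1.26 and quartiles of 0.935 and 1.70. In replicate 4 it ran from 0.284 to 11.1, with a median of 1.21 and quartiles of 0.891 and 1.77. A ratio under 1 means a higher mean count per linker of the wildtype than per dyad of the wildtype. Such a ratio was found in 136 arrays (30.2%) of replicate 3 and 155 (34.4%) of replicate 4, and in 114 arrays of both. At 0 hours there were 3 and 1 such arrays. In wildtype replicate B at 0 hours the median was 18.9, with quartiles of 7.75 and 41.1 and 1 array under 1.

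**Figure D3:**
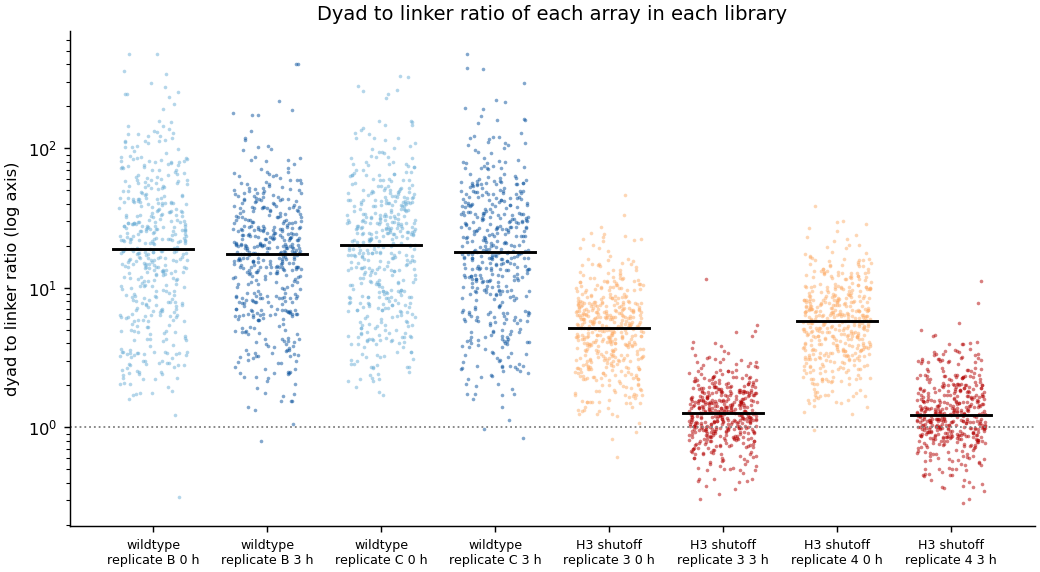
Dyad to linker ratio of each of the 451 arrays (points, log axis) in each library, with black bars at the medians and a dotted line at 1. Arrays without any linker midpoint, 1 in each of 3 wildtype libraries, are not drawn. The median is 5.17 and 5.73 in H3 shutoff at 0 hours and 1.26 and 1.21 at 3 hours.

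The ratio fell in both H3 shutoff cultures in 438 of the 451 arrays, in 1 culture in 9 and in neither in 4. Both cultures had fewer dyad midpoints at 3 hours in 424 arrays, and more linker midpoints in 424. Across the 451 arrays the log2 ratios of replicates 3 and 4 at 3 hours had a Pearson r of 0.913 (Spearman rho 0.895), with the same dyads, linkers and surrounding DNA in both. Between 0 and 3 hours of a culture r was 0.497 in replicate 3 and 0.405 in replicate 4. Which arrays came out with a high or low ratio was thus alike in both depleted cultures and related less closely to the ratio before depletion. The number of nucleosomes in an array had an r of 0.0128 and -0.00125 with the log2 ratio at 3 hours, and the mean spacing 0.0596 and 0.0565, across the same 451 arrays.

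The end nucleosomes of the arrays were the most distinct after depletion. At 3 hours the first nucleosome from either end and the linker next to it had ratios of 1.41 and 1.40 in replicates 3 and 4. The second place had 1.15 and 1.14, and the third 1.19 and 1.17. At 0 hours the end was also the highest in this strain, with 5.32, 4.60 and 4.34 (replicate 3) and 5.63, 5.24 and 5.07 (replicate 4). In the wildtype the end was the lowest of the 3 places in every library, for instance 11.8, 13.2 and 13.03 in replicate B at 0 hours. The spread at 3 hours was lowest at the end, with 36.4, 38.6 and 39.8 bp (replicate 3) and 36.0, 38.3 and 39.2 bp (replicate 4) at the first 3 places, and the third place was wider than the second although its ratio was higher.

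Position in the gene was read from the 97 arrays of the start and interior classes on chromosomes 1, 11, 12 and 13. The bounds of these classes were chosen after the positions were known. At transcript starts the ratio of the arrays fell from 5.70 to 1.24 and from 6.41 to 1.25 in H3 shutoff replicates 3 and 4. In arrays farther inside it fell from 3.10 to 1.09 and from 3.67 to 1.05. Wildtype replicate B had 19.3 and 18.7 at the starts and 7.66 and 7.88 farther inside. The start arrays were above the others in all 8 libraries, and the gap was narrow at 3 hours in the H3 shutoff strain.

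At the starts the first nucleosome had the highest ratio. Counted from the gene start, its ratios at 3 hours were 2.06 and 2.09 in replicates 3 and 4, while the second had 1.25 and 1.31 and those from the third on lay between 0.972 and 1.30. At 0 hours the same first nucleosome had 18.7 and 23.8 and the fifth had 3.17 and 3.88, so the ratio already declined with distance from the start. In the wildtype it declined from 65.5 to 10.6 in replicate B at 0 hours. The spread of the first nucleosome at 3 hours was 33.0 and 33.1 bp, and that of the fifth 40.3 and 39.5 bp.

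The first 2 nucleosomes of an array, counted from the gene start, also lay farther into the gene, at the starts and in the interior alike. At this end of an array, into the gene is also into the array. Relative to the dyad in wildtype replicate C at 0 hours, the median position of the first nucleosome of the start arrays was 7 bp into the gene in both H3 shutoff libraries at 3 hours. It was 0 and 1 bp in the H3 shutoff libraries at 0 hours and between -1 and 0 bp in the other 3 wildtype libraries. The second nucleosome lay 13 and 12.5 bp into the gene. In the 52 arrays farther inside, the first nucleosome lay 7 and 6.5 bp into the gene at 3 hours and the second 9.5 and 11 bp, against 2 bp for the first in both cultures and 2.5 and 2 bp for the second at 0 hours. At place 3 the medians at 3 hours were 4 and 12 bp at the starts and 15 and 6.5 bp farther inside. At places 4 and 5 they ran from -21 to 19 bp. Place 5 had 19 and 6 bp at the starts and -21 and -17.5 bp farther inside. In the profile over both ends of all arrays, the end peak lay 4 bp inward in both H3 shutoff libraries at 3 hours. It lay at 0 bp in every other library. Whether the shift follows the gene or the array end was not tested. At 3 hours 88.9% and 91.1% of the 45 first nucleosomes at the starts were matched at all, and 73.3% and 66.7% of the second. Farther inside, 78.8% and 76.9% of the first and 69.2% and 71.2% of the second were matched. The shifts cover only matched nucleosomes.

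**Figure D4:**
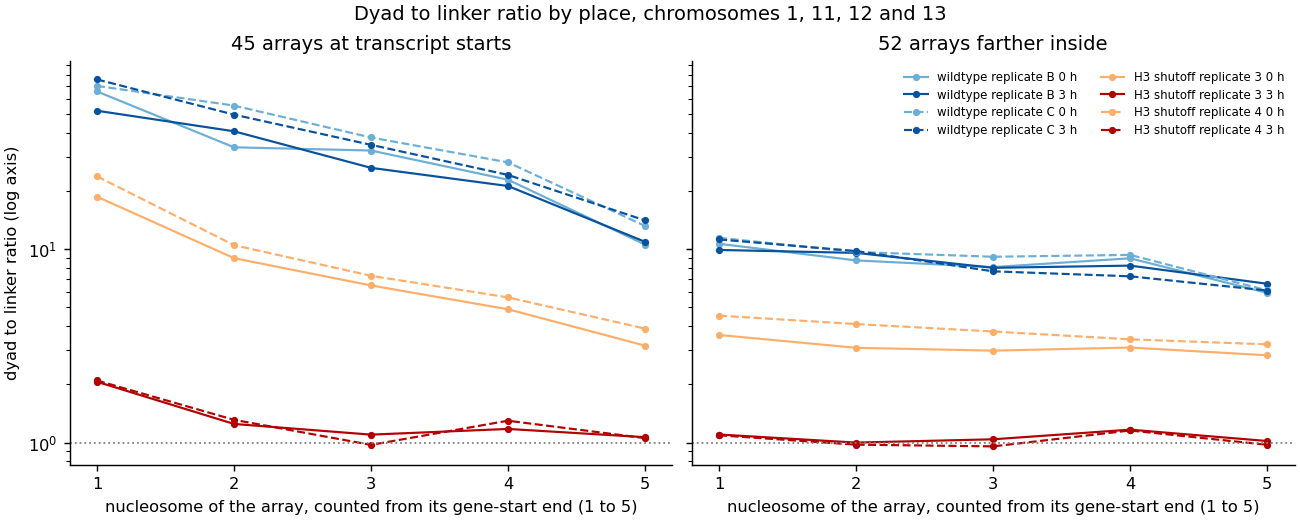
Dyad to linker ratio (log axis) of the nucleosomes 1 to 5 of an array, counted from the end nearer to the gene start, in the 45 arrays at transcript starts (left) and the 52 arrays farther inside (right). Each line is a library, and the dotted line marks 1. At 3 hours in H3 shutoff the first nucleosome at the starts has 2.06 and 2.09, and the 4 after it have 0.972 to 1.31.

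The number of midpoints in whole arrays changed far less than their arrangement. From 73 bp before the first dyad to 73 bp after the last, the arrays held 5.04% of all midpoints in H3 shutoff replicate 3 at 0 hours and 4.72% at 3 hours, and 5.11% and 4.91% in replicate 4. Wildtype B held 5.36% and 4.94%, and wildtype C 5.22% and 4.99%, the choosing library being the second-highest of the 8. The share fell in both H3 shutoff cultures and in wildtype B, by 0.197 to 0.418 percentage points.

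Counts of each array were tested together with 1000-bp segments of the rest of the genome, 12015 in all, with edgeR's quasi-likelihood test on a model with culture as a block. In the H3 shutoff strain 34 arrays fell and 20 rose from 0 to 3 hours at an adjusted p under 0.05, which is 7.54% and 4.43% of the 451 arrays. Among all segments 7.07% fell and 7.18% rose, so the share of arrays that fell was near the background in this fit. The median log2 change was -0.11 over the arrays and -0.03 over all segments. With TMM scaling, which equalizes the bulk of the segments, 21 arrays (4.66%) fell and 20 (4.43%) rose, against 5.20% and 7.92% of all segments. With DESeq2 and its size factors 5 (1.11%) fell and 6 (1.33%) rose, against 0.907% and 2.21%. In all 3 analyses a smaller share of the arrays than of all segments rose. With fragments of 140 to 160 bp 22 arrays fell and 6 rose, against 258 and 361 of 12014 segments. There, and with either wildtype culture left out, the share that fell was larger among the arrays than among all segments. Leaving out either H3 shutoff culture lowered both counts of the main fit, and leaving out either wildtype culture raised them. The median log2 change over the arrays was -0.11 without either wildtype culture, against -0.03 over all segments. It was -0.11 and -0.10 without H3 shutoff replicates 3 and 4, against -0.05 and 0.00.

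The change in H3 shutoff was lower than that in the wildtype for 59 arrays (13.1%) and higher for 60 (13.3%), by the same test in the 6 libraries left without the culture of the choosing library. Over all segments 14.9% were lower and 13.9% higher. With TMM scaling 39 (8.65%) were lower and 65 (14.4%) higher, against 12.7% and 17.3%, and with DESeq2 0 and 1, with 47 arrays at an unadjusted p under 0.05, against 0.0333% and 0.791%. The share of all segments at an unadjusted p under 0.05 was not counted, so the number of arrays at that p is only a description. Without scaling, the median difference was -0.03 over the arrays and -0.07 over all segments. The wildtype was represented there by replicate B alone, so the spread came only from the H3 shutoff cultures. With all 8 libraries 34 arrays (7.54%) were lower and 46 (10.2%) higher, against 9.70% and 9.22% of all segments, and with the wildtype 3-hour libraries exchanged 21 (4.66%) and 30 (6.65%), against 6.71% and 7.12%. In the fit of all 8, leaving out either H3 shutoff culture lowered both counts. The median difference over the arrays was then -0.02 without replicate 3 and -0.03 without replicate 4, against -0.08 and -0.04 over all segments. Arrays chosen instead in wildtype B at 0 hours, a library within the fit, gave another picture, with 17 of 277 (6.14%) lower and 58 (20.9%) higher, against 14.8% and 14.3%, and a median difference of 0.19.

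Counts in the 100-bp window around each dyad, in contrast, fell in many arrays. Of the 2978 array windows 1093 (36.7%) fell and 53 (1.78%) rose at an edgeR adjusted p under 0.05, and of all 57087 windows tested 27.9% fell and 3.86% rose. The median log2 change was -0.52 over the array windows and -0.39 over all windows. TMM scaling, which moves the median of all windows to -0.00, left 345 (11.6%) that fell and 170 (5.71%) that rose, against 8.88% and 11.4% of all windows, and DESeq2 called 15 (0.504%) and 21 (0.705%), against 0.385% and 1.14%. Leaving out either H3 shutoff culture lowered both counts of the fit without scaling. The median over the array windows was then -0.58 without replicate 3 and -0.45 without replicate 4, against -0.45 and -0.31 over all windows. The windows were drawn on the wildtype positions, so a nucleosome that moved and one that was lost give the same fall.

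Counted by array and without TMM scaling, at least 1 window fell in 390 arrays, over 50% of the windows in 99, and every window in 5, while 37 arrays had a window that rose. These counts have no background from runs of other windows, and the 15 windows that DESeq2 called can lie in no more than 15 arrays. The share that fell was 38.1% at the end of an array, 38.1% at the second place and 34.5% farther in. Single windows changed by -2.59 to 1.39 on the log2 scale.

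The 6 longest arrays gave the following ratios. The 12-nucleosome array on chromosome 8, with dyads from 18825 to 20629 in sacCer1 coordinates, was weak in every library, with 3.47, 3.01, 3.20 and 2.74 in wildtype B at 0 and 3 hours and wildtype C at 0 and 3 hours. H3 shutoff replicate 3 had 1.62 and then 1.19, and replicate 4 had 2.16 and then 1.13. The array kept none of its 11 spacings in either culture at 3 hours. The 10-nucleosome array on chromosome 13 from 97917 to 99404 lies in TUB1 (YML085C), which encodes alpha-tubulin, with its first dyad 27 bp from the listed start. There the wildtype libraries, in the same order, had 51.1, 29.0, 40.7 and 32.4, and H3 shutoff went from 5.36 to 1.13 and from 7.03 to 1.11. All 9 spacings of TUB1 were kept in the 4 wildtype libraries, 9 and 8 in H3 shutoff at 0 hours, and 0 and 1 at 3 hours.

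A further pair of arrays of 10 nucleosomes is in listed genes. That in LHS1 (YKL073W), a chaperone gene of the endoplasmic reticulum, runs from 296083 to 297512 on chromosome 11 and had 14.2, 11.4, 17.2 and 14.8 in the wildtype. Its ratio fell from 5.28 to 1.28 and from 5.17 to 1.52 in H3 shutoff replicates 3 and 4. In BUD6 (YLR319C), whose product acts with formins in actin cable assembly, the array from 770212 to 771700 on chromosome 12 had 79.7, 24.4, 26.4 and 33.5 in the wildtype and fell from 5.17 to 1.05 and from 6.12 to 1.14. BUD6 kept 4 and 3 of its 9 spacings at 3 hours. The total midpoints of these arrays stayed between 701 and 799 in LHS1 and between 726 and 895 in BUD6 over the 8 libraries.

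The remaining 2 of the longest lie on chromosomes for which no transcripts were used. On chromosome 4 from 1127838 to 1129340 the wildtype had 47.5, 32.0, 32.9 and 47.8, and H3 shutoff went from 6.23 to 1.50 and from 7.83 to 1.07. On chromosome 7 from 459894 to 461393 the wildtype had 42.0, 34.2, 50.1 and 49.2, and H3 shutoff went from 8.65 to 2.37 and from 8.46 to 2.92. This last array kept the highest ratio of the 6 at 3 hours in both cultures. For none of the 6 did the total count change at an edgeR adjusted p under 0.05, the lowest being 0.174 for TUB1.

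**Figure D5:**
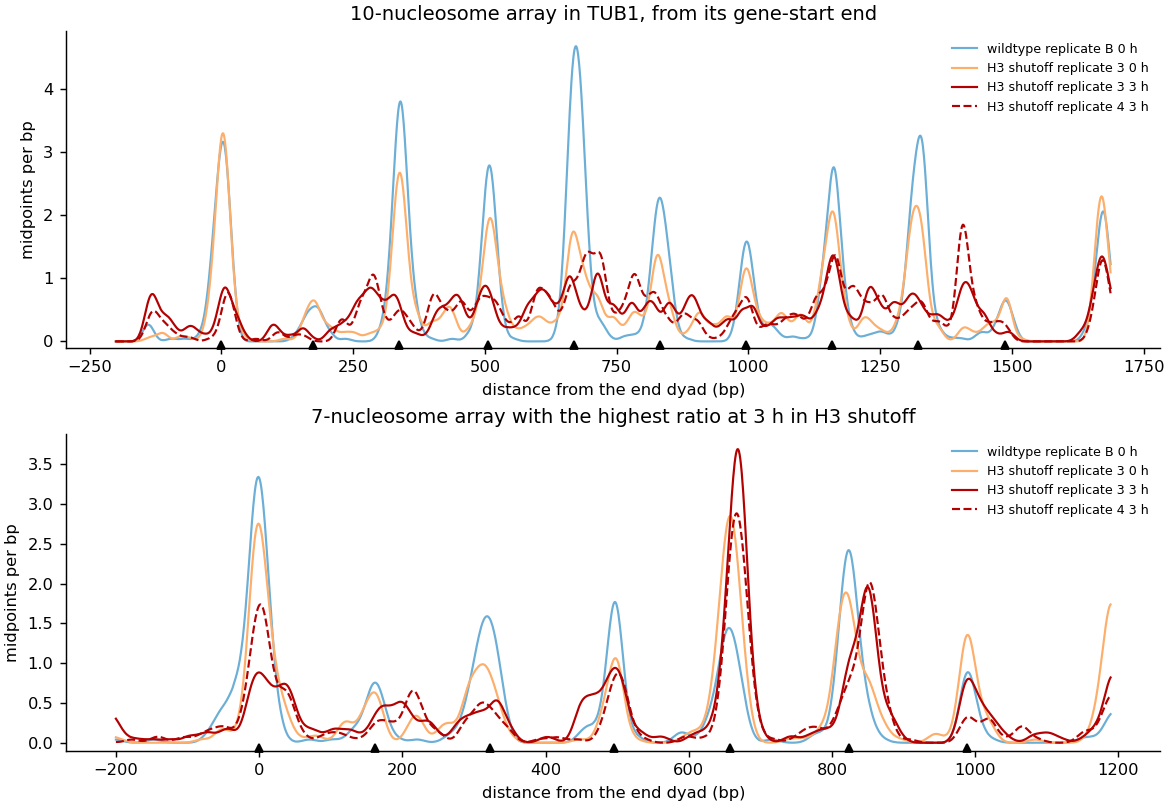
Midpoints per bp, smoothed with an SD of 10 bp, against the distance in bp from an end dyad, for the TUB1 array (top, from its gene-start end) and the chromosome 2 array with the highest ratio at 3 hours (bottom). Triangles mark the dyads of the choosing library. The lines are wildtype B and H3 shutoff 3 at 0 hours and both H3 shutoff libraries at 3 hours, whose midpoints lie nearly as often between the dyads of the TUB1 array as on them (ratio 1.13 and 1.11) and mostly near the dyads of the other (11.5 and 11.1).

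Of the arrays whose total count fell with the same direction in both cultures, the 5 with the largest falls were as follows, with midpoints in the order 0 and 3 hours. The array on chromosome 7 from 772320 to 773166 had 334 and 178 midpoints (H3 shutoff replicate 3) and 353 and 118 (replicate 4), a log2 change of -1.23 (edgeR adjusted p = 0.00385), against 282 and 334 in wildtype B and 388 and 350 in wildtype C. On chromosome 5 from 355306 to 356299 the counts were 563 and 281, and 508 and 269, a log2 change of -0.96 (edgeR adjusted p = 0.00130), with 488 and 622, and 515 and 595, in the wildtype. In both arrays the 3-hour libraries of H3 shutoff were below all 6 others.

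In CWC24 (YLR323C), a gene for a pre-mRNA splicing factor, the array from 778108 to 778926 on chromosome 12 had 526 and 319 midpoints in replicate 3 and 518 and 278 in replicate 4 (log2 change -0.81, edgeR adjusted p = 0.00241), and 496 to 535 in the wildtype libraries. The array on chromosome 10 from 518277 to 519107 had 415 and 272, and 376 and 236 (-0.64, edgeR adjusted p = 0.00640), with 393 to 420 in the wildtype. The array in RCI50 (YKL133C) on chromosome 11 from 191887 to 193062 had 562 and 425, and 517 and 309 (-0.57, edgeR adjusted p = 0.0138), with 467 and 715 in wildtype B and 530 and 603 in wildtype C. In CWC24 and on chromosome 10 both 3-hour libraries of H3 shutoff were below all 6 others by over 100 midpoints.

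Among the arrays that rose, the largest changes were smaller. The array on chromosome 15 from 987419 to 988252 rose from 308 to 424 and from 251 to 498 midpoints (log2 change 0.72, edgeR adjusted p = 0.00660), while the wildtype had 405 and 366, and 397 and 316. On chromosome 4 from 656483 to 657295 the counts rose from 365 to 531 and from 389 to 598 (0.58, edgeR adjusted p = 0.00797), against 450 and 268, and 343 and 277, in the wildtype. Within SOK2 (YMR016C), a gene for a transcription factor that regulates pseudohyphal growth, the array from 303956 to 304779 on chromosome 13 rose from 462 to 629 and from 470 to 757 (0.57, edgeR adjusted p = 0.00775), with 535 and 383, and 497 and 420, in the wildtype. In these 3 arrays each H3 shutoff culture rose and each wildtype culture had fewer midpoints at 3 hours.

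The array on chromosome 7 from 294134 to 294961 rose from 452 to 605 and from 430 to 701 midpoints (0.56, edgeR adjusted p = 0.00793), with 511 and 440, and 490 and 355, in the wildtype. Its dyad to linker ratio also rose, from 1.66 to 4.50 and from 2.05 to 3.27 in the same cultures. The array on chromosome 14 from 60299 to 61117 rose from 434 to 554 and from 436 to 713 (0.53, edgeR adjusted p = 0.0117), with 468 and 332, and 452 and 405, in the wildtype. Its ratio fell from 4.55 to 2.26 and from 4.27 to 2.02. Of the 10 arrays named for a change in total count, the one on chromosome 7 from 294134 was alone in having a higher ratio at 3 hours in both H3 shutoff cultures.

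The arrays that stayed most distinct were picked after their values were seen. An array of 7 nucleosomes on chromosome 2 from 326357 to 327346 had a ratio of 23.4 and 26.7 in H3 shutoff replicates 3 and 4 at 0 hours and 11.5 and 11.1 at 3 hours, and 26.0 to 69.6 in the wildtype. An array on chromosome 8 from 333104 to 333931 had 27.1 and 20.3 at 0 hours and 5.38 and 5.62 at 3 hours. These were the only 2 arrays above 5 in both cultures at 3 hours, and 55 were above 2 in both. Of the 3 arrays on the annotated chromosomes that touched no listed transcript, 2 were among the 5 highest by the lower of their 2 values at 3 hours: chromosome 12 from 1052130 had 4.90 and 7.76 at 3 hours and chromosome 11 from 313282 had 4.82 and 3.97. The third, on chromosome 13 from 371166, had 0.402 and 0.366.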

How the data were processed

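Fragment lists and nucleosome calls of 8 paired-end MNase-seq libraries were used. The authors aligned reads with Bowtie 0.12.6 to sacCer1, took pairs 100 to 200 bases apart outside the rDNA and drew equal numbers of them. The deposited calls hold counts of midpoints, positions, SDs and lengths in bp, and the fraction of midpoints at the center base, a column of the authors that entered no result here. Fragment starts and ends were deposited in bp. The build could not be checked against a sequence, and none is printed.

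Members and lists were chosen with earlier results of these data known. Arrays named are the 6 with most nucleosomes, ties going to the smaller SD of spacings, and the 5 with the largest fall and 5 with the largest rise in count past the test with one direction in both cultures. Transcripts came from a list supplied with the paper, strand from the systematic name, and symbols from RefSeq, matched for 100 of 101 arrays. The list's expression values were not used.

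Counts were tested with edgeR 4.0.16 (limma 3.58.1, R 4.3.3) with Benjamini-Hochberg adjustment at 0.05, library size set to the number of fragments, for features with at least 80 midpoints in the libraries fitted, after a test on simulated data. DESeq2 1.42.0 was an alternative. Culture was a block because each culture gave both times. Deviations from the group means at 0 and 3 hours had an r of 0.636 in H3 shutoff and -0.388 in the wildtype over 12015 segments, and 0.341 and -0.00260 over the 12006 with more than 2 midpoints in every library. Other values were computed with Python 3.11.15 (pandas 2.3.3, numpy 2.4.6, matplotlib 3.10.9, scipy 1.17.1). The labels do not say how the cultures of a strain are related, so SDs measure the spread between these samples.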

Additional observations from a re-analysis of the deposited data

Results flagged for a closer look

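The autocorrelation height in the arrays changed in opposite directions in the strains, by 0.227 in wildtype B, by 0.0444 in wildtype C, and by -0.624 and -0.820 in H3 shutoff replicates 3 and 4. The value of wildtype C starts from the library that chose the arrays. The difference was not tested, and with the wildtype 3-hour libraries exchanged a wildtype culture fell too. The number of arrays that the rule finds in a library changed by 555 and 527 in the wildtype and by -432 and -511 in H3 shutoff, also not tested.

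The change in total count differed between the strains for 59 arrays that were lower and 60 that were higher in H3 shutoff, which is 13.1% and 13.3% of the arrays, against 14.9% and 13.9% of all segments. Among the arrays named, the log2 difference of the changes was -1.47 on chromosome 7 from 772320, -1.31 on chromosome 5 from 355306, -0.76 in CWC24, -0.74 on chromosome 10 from 518277 and -1.18 in RCI50. It was 0.87 on chromosome 15 from 987419, 1.33 on chromosome 4 from 656483, 1.05 in SOK2, 0.78 on chromosome 7 from 294134 and 1.03 on chromosome 14 from 60299. These arrays were named for their change in H3 shutoff, which enters the difference, so the values are a description.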

How the results depend on the processing

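Arrays that fell and rose in total count in H3 shutoff numbered 21 and 20 with TMM scaling and 5 and 6 with DESeq2. With fragments of 140 to 160 bp they were 22 and 6, against 258 and 361 of all 12014 segments. Of the 277 arrays chosen in wildtype B at 0 hours 18 fell and 7 rose, against 891 and 908 of 12022 segments. They were 19 and 12 with the wildtype 3-hour libraries exchanged, an alternative added after seeing the data, and 3 to 93 and 0 to 30 when a culture was left out. Array windows that fell and rose numbered 345 and 170 with TMM, 15 and 21 with DESeq2, 694 and 29 with fragments of 140 to 160 bp, 554 and 20 of 1803 in the arrays of wildtype B, 928 and 41 with the exchange, and 229 to 1192 and 1 to 63 with a culture left out. For the difference between the strains, arrays lower and higher numbered 39 and 65 with TMM, 0 and 1 with DESeq2, 43 and 35 with fragments of 140 to 160 bp, 17 and 58 in the arrays of wildtype B, 34 and 46 with all 8 libraries and 21 and 30 with the exchange. Leaving out an H3 shutoff culture could not be fitted in the 6 libraries, where no residual degrees of freedom remained. In the fit of all 8, also added after seeing the data, it gave 7 to 28 and 11 to 29. Without the filter on low counts the numbers of arrays and array windows called stayed within 1.5 times those of the main fits. The cause of these shifts was not tested.

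Without the replicate block, 24 arrays fell and 14 rose, against 546 and 581 of all 12015 segments. Of the array windows 946 fell and 40 rose, against 13565 and 1699 of all 57087 windows. The median difference between the strains was then -0.03 over the arrays and -0.07 over all segments.

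The mean H3 shutoff change in repeat length (9 bp) was 11 bp in runs of at least 8 nucleosomes, 12 bp with smoothing of SD 20 bp, 0 bp with fragments of 140 to 160 bp and 8 to 10 bp by culture. The change in spread was 7.22 bp in the arrays of wildtype B, 8.62 bp as the SD of midpoints within 73 bp of the dyads and 7.49 to 8.01 bp by culture. The change in spacings kept was -52.6 percentage points with matching within 40 bp and -50.8 to -42.7 by culture. The log2 change of the dyad to linker ratio was -2.15 with fragments of 140 to 160 bp, -2.24 within 10 bp and -2.09 to -1.91 by culture, and that of the autocorrelation height was -0.82 to -0.62 by culture. In every other alternative run, these H3 shutoff changes moved by less than the SD between cultures and none turned in direction. Depth is 5000001 fragments per library, which leaves the ratio of a single array on few linker midpoints in the wildtype.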
